A study of Mus musculus with 10 samples.

Results

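Expression of 9 transcription factor genes of the lateral plate and heart was followed along the in vitro path from ES cells to blood. The genes were Hand1, Hand2, Gata4, Gata6, Tbx20, Tbx5, Isl1, Nkx2-5 and Foxf1. They were chosen by name, and all 9 were found among the 55487 genes of the count tables, among the 22596 genes with enough counts to be tested, and among the 15686 genes of the deposited matrix of stage means. The starting cells were undifferentiated ES cells of the mouse line HM-1, and the other populations were derived from them in serum, with no drug and no difference in genotype given between stages. Hemangioblast cells (HB) were FLK1+ cells taken with magnetic beads from embryoid bodies after 3 d. Hemogenic endothelium without CD41 (HE1, KIT+ TIE2+ CD41-) and with it (HE2, KIT+ TIE2+ CD41+), and hematopoietic progenitors without TIE2 (HP, KIT+ TIE2- CD41+), were sorted by flow cytometry after another 2.5 d of blast culture, in which FLK1+ cells were grown with VEGF, IL-6 and conditioned medium of D4T cells. Each stage had 2 nuclear RNA-seq libraries, so that 10 libraries were available. Because HE1, HE2 and HP came from the same kind of culture and differed by their surface markers, the order of these 3 stages is that of the sort and not of time. In bulk samples fewer cells that express a gene and less RNA per cell cannot be told apart.

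Lateral plate mesoderm gives rise to the heart, the blood, the endothelium and the smooth muscle of the gut and vessels, and blood and heart precursors pass through a common mesoderm that carries FLK1. The factors studied here are known as parts of the regulatory network on the cardiac and mesenchymal side of this mesoderm. HAND1 and HAND2 are bHLH factors that bind E-boxes with E proteins. GATA4 and GATA6 are zinc finger factors of the same family as GATA1, GATA2 and GATA3, which act in blood, and they recognise the same core letters. TBX5 and TBX20 are T-box factors, ISL1 is a LIM homeodomain factor of the second heart field, NKX2-5 is the NK homeodomain factor of early cardiac cells, and FOXF1 is a forkhead factor of splanchnic mesoderm that responds to Hedgehog signals.

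The libraries held between 24920434 and 58782055 counts on genes. Levels are given below as CPM, the counts of a gene per 1000000 counts of its library after TMM scaling, and a mean of 9 CPM was used as the threshold for an expressed gene. A floor of 3 counts corresponded to between 0.0532 and 0.126 CPM, which covers counting error only. Markers were checked against the labels. Pou5f1, the ES cell factor, stood at 549.0 and 519.8 CPM in ES, Kdr, which encodes FLK1, at 956 and 1284 CPM in HB, Cdh5, the endothelial cadherin, at 1430 and 797.1 CPM in HE1, and Ptprc, the leukocyte marker CD45, at 38.7 and 47.3 CPM in HP against at most 1.14 CPM in both libraries of ES, HB and HE1. Of the genes of the sort antigens, Tek, which encodes TIE2, had 564 and 294 CPM in HE1 and 61.5 and 64.2 CPM in HP, and Kit had at least 69.3 CPM in each library of every stage. Itga2b, which encodes CD41, was not absent from the cells sorted without that antigen, with 227 and 127 CPM in HE1 against 505 and 469 CPM in HE2 and 400 and 367 CPM in HP. Its call from HE1 to HE2 passed (edgeR, adjusted p = 0.00922), while that from HE1 to HP was lost without HE1 replicate 2 or HP replicate 1. Of 14 genes of primitive and visceral endoderm, Afp and Ttr had at most 0.342 and 0.364 CPM in each library, but 4 (Sox7, Sox17, Dab2 and Lama1) had a mean of 9 CPM or more in HB, HE1 and HE2, and the list summed to between 293 and 395 CPM in HE1. Their part in the levels of Gata4 and Gata6 was not tested.

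The 2 libraries of a stage were not equal, and this touched the factor genes. In HE2 all 9 of them were higher in library 1 than in library 2, with a median log2 difference of 0.88 and a range from 0.41 to 1.76, against -0.05 for the 12235 genes at 9 CPM or more in some stage. In the same stage 8 of 8 expressed endothelial genes were higher in library 1 (median log2 difference 0.86), whereas 10 of 12 blood progenitor genes were lower (median -0.82). In HE1, library 2 held more transcripts of ES cell genes, whose summed level was 8.32 CPM in library 1 and 74.3 CPM in library 2. It also held more of the smooth muscle and mesenchyme genes, with 1012 and 1818 CPM. Library 1 of HE1 was higher in 9 of 9 expressed endothelial genes (summed level 5781 and 3429 CPM) and in 7 of 8 expressed blood progenitor genes (797 and 467 CPM). In HP the smooth muscle and mesenchyme genes summed to 1458 CPM in library 1 and 743 CPM in library 2. The part of these differences in the results below was not tested.

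**Figure D1:**
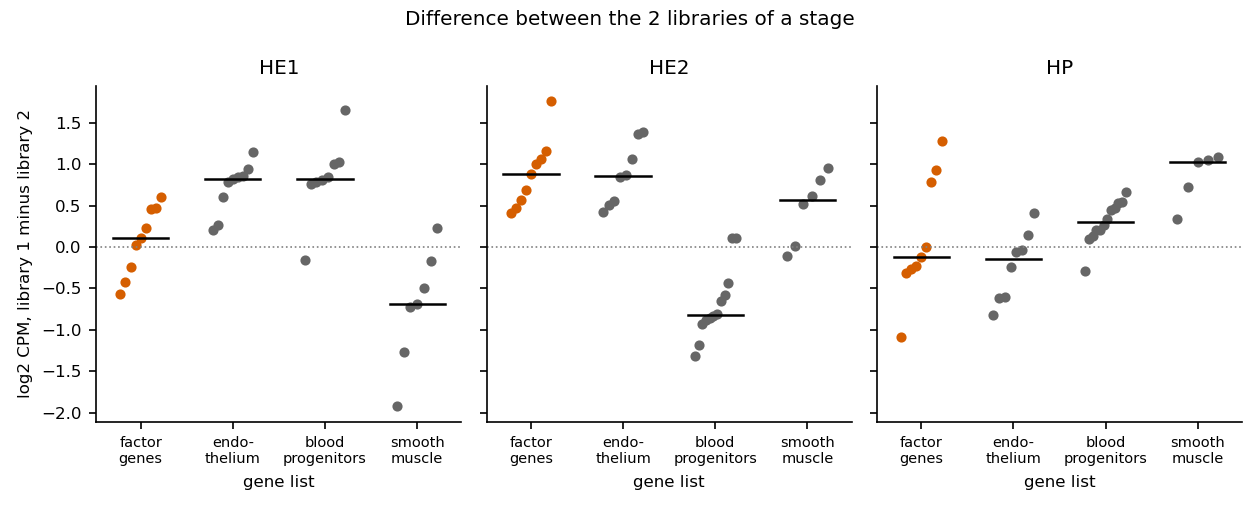
Difference in log2 CPM between library 1 and library 2 of HE1, HE2 and HP (y axis) for the 9 factor genes (orange) and for the expressed genes of 3 marker lists (grey). Each point is 1 gene and black lines are medians. In HE2 the factor genes and the endothelial genes lie above 0, and most blood progenitor genes lie below it.

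Promoter windows from RefSeq, running from 250 bases before the annotated start to 50 bases after it (GRCm38.p6), are shown for 3 genes. These are Hand2 and Tbx20, whose highest values were both in HE1, and Isl1, which fell after HB. The capitals mark GATA letters, searched on both strands as AGATAA with its variant that ends in G (AGATAG) and as TGATAA with its own such variant (TGATAG). They were chosen because 2 of the factor genes and 3 of their relatives in blood encode proteins that read them.
Hand2, chr8:57320733-57321032, plus strand: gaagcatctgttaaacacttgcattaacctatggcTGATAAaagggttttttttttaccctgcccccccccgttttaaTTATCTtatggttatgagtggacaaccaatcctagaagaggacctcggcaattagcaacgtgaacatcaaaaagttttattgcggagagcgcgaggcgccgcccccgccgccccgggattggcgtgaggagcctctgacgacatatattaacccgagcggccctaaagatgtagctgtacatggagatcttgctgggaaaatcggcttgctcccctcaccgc
Tbx20, chr9:24774254-24774553, minus strand: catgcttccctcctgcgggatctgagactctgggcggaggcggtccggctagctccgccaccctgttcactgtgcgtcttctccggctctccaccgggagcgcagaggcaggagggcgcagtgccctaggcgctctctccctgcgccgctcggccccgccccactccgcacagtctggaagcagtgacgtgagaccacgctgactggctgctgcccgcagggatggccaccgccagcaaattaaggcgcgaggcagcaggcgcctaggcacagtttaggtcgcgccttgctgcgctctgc
Isl1, chr13:116309639-116309938, minus strand: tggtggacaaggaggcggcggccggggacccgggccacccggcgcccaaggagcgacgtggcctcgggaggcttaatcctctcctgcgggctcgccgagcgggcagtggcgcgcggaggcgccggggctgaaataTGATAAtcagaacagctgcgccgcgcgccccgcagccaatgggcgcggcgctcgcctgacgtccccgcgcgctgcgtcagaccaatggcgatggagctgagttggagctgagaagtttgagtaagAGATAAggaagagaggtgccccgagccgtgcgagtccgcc
The windows of Hand2 and Isl1 each held 2 such matches, and that of Tbx20 held 0. Of 32544 promoter windows of the same length, 29.6% held at least 1. The T-box letters AGGTGT were found in none of the 3 windows and in 13.8% of all, on either strand. The E-box letters CANNTG were found 2 times in the window of Hand2, once in that of Isl1 and not in that of Tbx20, and in 72.3% of all. The GC content was 50.3% for Hand2, 68.3% for Tbx20 and 69% for Isl1, against a median of 53% over all windows. Such matches describe the letters and are not evidence of binding.

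Which of the factor genes are switched on with the FLK1+ mesoderm was addressed by comparing HB with ES. All 9 genes were called as higher in HB. Of all genes tested, 11.5% were called as higher and 17.3% as lower in this comparison. Over the same step 9 of 12 blood progenitor genes were higher and 2 lower (median log2 fold change 3.67). Of 10 endothelial genes, 6 were higher and 1 lower (median 3.71), and all 6 ES cell genes were lower (median -6.01). Their part in the rise of the factor genes was not tested. Here and below, a call needs a change of at least 2-fold and an adjusted p-value under 0.05, where p-values came from the quasi-likelihood test of edgeR with the Benjamini-Hochberg correction across the 22596 genes, and log2 fold changes are given with their SE.

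Gata4 (chr14:63198922-63271692), a factor of heart and endoderm, had 199 and 229 CPM in HB after 4.50 and 4.19 CPM in ES. Its log2 fold change was 5.62 ± 0.42 (edgeR, adjusted p = 5.64e-06). Gata6, which works with it in both, had 173 and 177 CPM in HB and 0.426 and 0.487 CPM in ES. It rose by 8.59 ± 0.40 on the log2 scale (edgeR, adjusted p = 4.59e-07). Per length of exon, the level of Gata4 was 17.6 and 14.3 times that of Gata6 in the ES libraries and 1.91 and 2.16 times in the HB libraries.

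Hand1 (chr11:57828705-57832818), needed for extraembryonic mesoderm and the heart tube, had 1.60 and 1.81 CPM in ES and 105 and 137 CPM in HB. Hand2 (chr8:57320983-57324633), its relative in the second heart field and the limb, gave only 5 and 1 counts in the ES libraries and 1394 and 2118 counts in the HB libraries, or 46.1 and 59.6 CPM. The adjusted p-values were 3.85e-06 for Hand1 and 4.85e-07 for Hand2 (edgeR). Tbx20 (chr9:24718138-24774303), a repressor and activator in cardiac chambers, was at 8.21 and 8.63 CPM in ES, just below the threshold. Per kb of exon, its ES mean of 0.702 CPM was below those of Gata4 (1.11) and Hand1 (0.852). Tbx20 reached 111 and 130 CPM in HB (log2 fold change 3.84 ± 0.25, edgeR, adjusted p = 2.52e-06).

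The remaining genes were at lower levels. Foxf1 (chr8:121084386-121088144) rose from 0.160 and 0.115 CPM to 21.2 and 28.9 CPM (edgeR, adjusted p = 1.22e-05). Isl1 (chr13:116298281-116309689) rose from 0.319 and 0.459 CPM to 7.10 and 6.84 CPM (edgeR, adjusted p = 0.000316), and Tbx5 (chr5:119832668-119885219), the factor of the first heart field and forelimb, from 2 and 6 counts to 53 and 97 counts (edgeR, adjusted p = 0.00128). Nkx2-5 (chr17:26838664-26845009) had the smallest change, from 0.674 and 0.487 CPM to 2.05 and 1.58 CPM, with a log2 fold change of 1.62 ± 0.42 (edgeR, adjusted p = 0.0101). The latter 3 genes did not reach 9 CPM in HB, so that 6 of the 9 factor genes were expressed there by this threshold and 0 in ES. In the deposited matrix of stage means, Tbx20 was at 9.013 in ES, so that the count in ES depends on the levels used. The call of Nkx2-5 was lost without ES replicate 2 (edgeR, adjusted p = 0.0988) and without HB replicate 1 (edgeR, adjusted p = 0.0611).

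**Figure D2:**
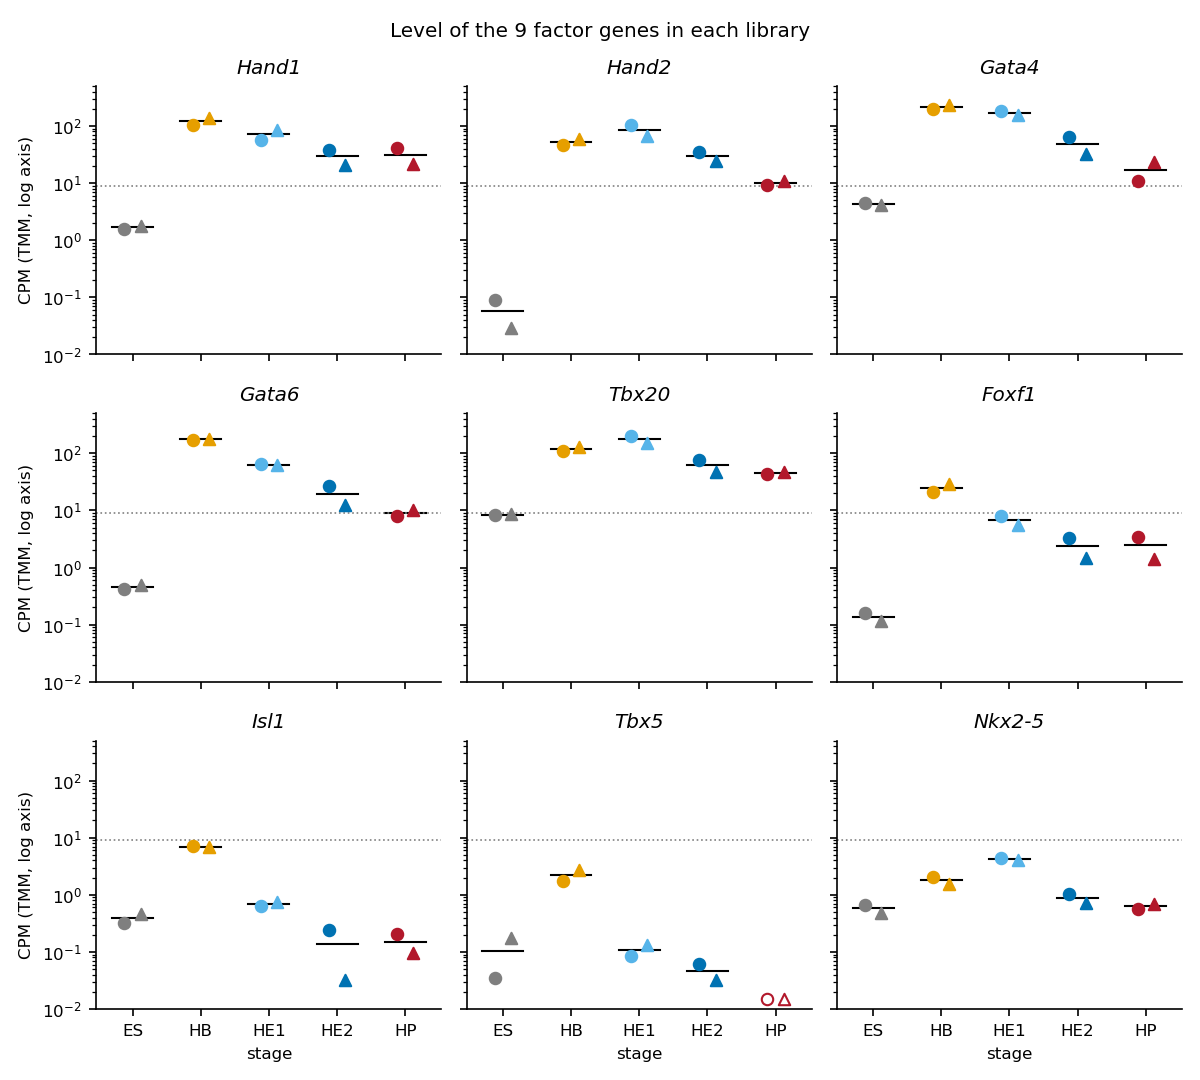
CPM with TMM scaling (log axis) of the 9 factor genes in each library of the 5 stages. Circles are library 1, triangles are library 2, black lines are the means of the 2 libraries, the dotted line is the threshold of 9 CPM, and open symbols are libraries with no count. The mean of each gene is higher in HB than in ES, and the 9 genes then part, with Hand2, Tbx20 and Nkx2-5 highest in HE1 and the others highest in HB.

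Which factor genes were altered on entry into the CD41- hemogenic endothelium was addressed by comparing HE1 with HB. Here the 9 genes parted. Gata6, Foxf1, Isl1 and Tbx5 fell, Nkx2-5 rose, and Hand1, Hand2, Gata4 and Tbx20 were not called. Of all genes tested, 8.19% were called as lower and 12.7% as higher. Over the same step 8 of 10 endothelial genes were higher and 0 lower (median log2 fold change 3.13). Of 12 blood progenitor genes, 3 were higher and 0 lower (median 0.12). Their part in the changes of the factor genes was not tested.

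The losses differed in depth. Isl1 was left with 0.631 and 0.759 CPM in HE1 (log2 fold change -3.32 ± 0.57, edgeR, adjusted p = 0.00185), and Tbx5 with 2 and 4 counts (edgeR, adjusted p = 0.00324), which is at the floor. Gata6 kept 63.6 and 62.6 CPM (log2 fold change -1.47 ± 0.27, edgeR, adjusted p = 0.00262). Foxf1 kept 7.86 and 5.64 CPM, under the threshold (log2 fold change -1.89 ± 0.45, edgeR, adjusted p = 0.0103). Its call was lost without HE1 replicate 2 (edgeR, adjusted p = 0.0644) and without HB replicate 2 (edgeR, adjusted p = 0.0840).

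Hand2 and Tbx20 had higher values in HE1 than in HB. Hand2 had 103 and 67.8 CPM in HE1, and Tbx20 had 203 and 148 CPM, in both cases above both HB libraries. Their log2 fold changes of 0.69 ± 0.26 and 0.55 ± 0.22 did not pass the test (edgeR, adjusted p = 0.0620 and 0.0853). Nkx2-5 stood at 4.33 and 4.03 CPM in HE1, its highest level of the 5 stages, with a log2 fold change over HB of 1.20 ± 0.40 (edgeR, adjusted p = 0.0395). This call was lost in edgeR with all genes that had a count (adjusted p = 0.0727), with only the 4 libraries, with a term for the replicate number, and without any 1 of the ES, HB and HE1 libraries (adjusted p from 0.0632 without HE1 replicate 2 to 0.222 without HB replicate 2). Hand1 with 57.8 and 85.7 CPM and Gata4 with 184 and 156 CPM were below their HB libraries, and neither difference passed the test (edgeR, adjusted p = 0.114 and 0.481). For Gata6 and Gata4, 2 genes of the same family, the fold changes thus were -1.47 and -0.33 on the log2 scale, and the difference between them was not tested.

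Which of them differed once CD41 appeared was addressed by comparing HE2 with HE1. All 9 had lower means in HE2 than in HE1. Of the 9, 6 were called as lower and 0 as higher, against 5.38% and 3.26% of all genes tested. Over the same step 11 of 12 blood progenitor genes were higher (median log2 fold change 2.94), or 8 without HE1 replicate 2 or HE2 replicate 2. The median log2 fold change of 10 endothelial genes was -0.82. All 6 ES cell genes were lower (median -3.78), but 1 of them without HE1 replicate 2 or HE2 replicate 1, 0 without HE2 replicate 2 and 3 without either HB library. The part of these in the change of the factor genes was not tested.

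Gata4 dropped from 184 and 156 CPM to 63.8 and 31.9 CPM (log2 fold change -1.83 ± 0.35, edgeR, adjusted p = 0.0136). Gata6 dropped to 26.3 and 12.5 CPM (-1.70 ± 0.28, edgeR, adjusted p = 0.00625) and Tbx20 to 75.6 and 46.8 CPM (-1.52 ± 0.23, edgeR, adjusted p = 0.00435). In each of these genes the HE2 library with the higher level was library 1.

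Hand2 was left with 35.5 and 23.9 CPM (-1.52 ± 0.26, edgeR, adjusted p = 0.00867), Hand1 with 38.4 and 20.9 CPM (-1.28 ± 0.34, edgeR, adjusted p = 0.0390), and Nkx2-5 with 1.04 and 0.730 CPM (-2.24 ± 0.41, edgeR, adjusted p = 0.0117). Foxf1 with 3.32 and 1.46 CPM and Isl1 with 8 and 1 counts missed the threshold (edgeR, adjusted p = 0.0573 and 0.0512), and Tbx5 gave 2 and 1 counts. Foxf1 and Isl1 passed it in DESeq2 (adjusted p = 0.0131 and 0.0146), where 8 genes were called, and in edgeR without the filter on low counts or with the genes of the deposited matrix alone. Isl1 also passed in limma-voom (adjusted p = 0.0445), and Foxf1 with a term for the replicate number (edgeR, adjusted p = 0.0461). The count of calls depended on HE2 replicate 2, the library with the lower levels. Without it, only Gata6 and Tbx20 were called, and without HE2 replicate 1 there were 8 calls. Without HE1 replicate 2 there were 5, since Hand1 was lost (edgeR, adjusted p = 0.211). Hand1 was lost also without any 1 of the ES and HB libraries (edgeR, adjusted p from 0.0537 to 0.0599). The calls over all genes moved with the same libraries, since 1216 genes were lower with all libraries, 106 without HE2 replicate 2, 2180 without HE2 replicate 1 and 226 without HE1 replicate 2.

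Against HB, 6 of the 9 were lower in HE2 and 0 were higher, while 11.0% of all genes tested were lower and 9.76% higher. Hand2 and Tbx20 were at 56.2% and 50.9% of their HB means and changed by less than 2-fold (log2 fold changes -0.83 ± 0.26 and -0.97 ± 0.23), and Nkx2-5 did not pass the test (edgeR, adjusted p = 0.0863). Gata4 with 22.3%, Hand1 with 24.5% and Gata6 with 11.1% of the HB mean were called, with adjusted p-values of at most 0.00156 in edgeR, as were Foxf1, Isl1 and Tbx5. Hand2 was called without HE2 replicate 1 or HB replicate 1 (edgeR, adjusted p = 0.0195 and 0.0442). Tbx20 lay at the 2-fold limit and was called without these and without either ES library, in limma-voom, with only the 4 libraries, with the genes of the deposited matrix alone and under both other scalings of library size.

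How far the factors stay on in blood-fated cells was addressed by comparing HP with the earlier stages. Against HB, all 9 were called as lower in HP, while 11.6% of all genes tested were lower and 10.1% higher. Against HE1, 8 were lower, while 11.2% of all genes were lower and 5.35% higher. Tbx5, with 2 and 4 counts in HE1 and no count in HP, was not called there (edgeR, adjusted p = 0.0517). It was called in limma-voom (adjusted p = 0.0427) and in edgeR without the filter on low counts (adjusted p = 0.0214). In edgeR it also passed with the genes of the deposited matrix alone (adjusted p = 0.0455) and under both other scalings of library size (adjusted p = 0.0499 and 0.0498). Marker genes of other kinds moved over the same step, since 10 of 10 endothelial genes were lower in HP than in HE1 (median log2 fold change -2.54, and -2.72 for the 9 factor genes) and 11 of 12 blood progenitor genes were higher (median 3.51). Their part in the change of the factor genes was not tested. Against HE2 none of the 22596 genes was called in either direction by edgeR, although 1783 had an unadjusted p-value under 0.05, 3 of the 9 factor genes (Hand2, Gata4 and Gata6) among them. DESeq2 called 108 genes as higher and 193 as lower there, and limma-voom 35 and 27. In edgeR, 145 of 39019 genes were higher and 389 lower without the filter on low counts. With only the 4 libraries compared, edgeR called 19 as higher and 35 as lower. The absence of calls in edgeR also depended on HE2 replicate 2. DESeq2 called the same 3 factor genes as lower in HP, with adjusted p-values of 2.31e-05, 0.00323 and 0.0136, and limma-voom called 0 of the 9.

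The residual levels in HP were spread widely. Tbx20 kept 42.7 and 46.6 CPM, which was 37.1% of its HB mean, and Hand1 kept 40.3 and 21.2 CPM, or 25.4%. Hand2 was left with 9.33 and 10.96 CPM, or 19.2%, Gata4 with 10.97 and 23.35 CPM, or 8.01%, and Gata6 with 8.03 and 9.98 CPM, or 5.14%. These 5 had a mean of at least 9 CPM in HP, and that of Gata6 was 9.001 CPM.

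Foxf1 was left with 3.47 and 1.40 CPM, or 9.70% of its HB mean, and Isl1 with 9 and 3 counts, or 2.16%. Tbx5 gave no count in either HP library. Its HB level was at least 27.4-fold higher than the mean floor of the HP libraries. Nkx2-5 with 0.570 and 0.699 CPM was at 35.0% of an HB level that was itself low. The median share of the HB level was taken over the 6 genes that were expressed in HB, which leaves out Isl1, Tbx5 and Nkx2-5. It was 69.4% for HE1, 23.4% for HE2 and 14.4% for HP. The value for HE2 was 30.8% without HE2 replicate 2 and 16.1% without HE2 replicate 1, so that it was close to that for HP in the latter case.

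The size of the change from HB to HP was tested for each gene. It was smallest for Tbx20, with a log2 fold change of -1.43 ± 0.23 (edgeR, adjusted p = 0.000868), and Nkx2-5 (-1.51 ± 0.42, edgeR, adjusted p = 0.0189). Hand1 changed by -1.97 ± 0.35 (edgeR, adjusted p = 0.00165) and Hand2 by -2.38 ± 0.27 (edgeR, adjusted p = 9.92e-05). Foxf1 changed by -3.35 ± 0.48, Gata4 by -3.65 ± 0.38, Gata6 by -4.29 ± 0.31 and Isl1 by -5.45 ± 0.65, with adjusted p-values of at most 0.000441 in edgeR. The calls from HB to HP held without any 1 library except that of Nkx2-5, which was lost without HB replicate 1, HP replicate 1 or HP replicate 2 (edgeR, adjusted p = 0.103, 0.102 and 0.0505).

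**Figure D3:**
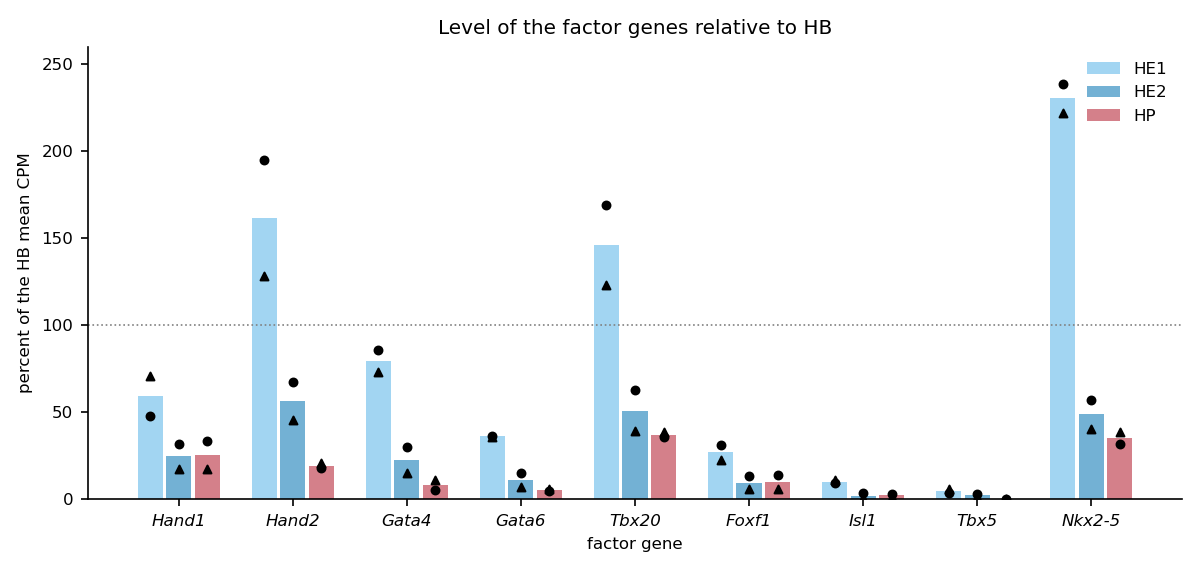
Level of each factor gene in HE1, HE2 and HP as a percentage of its mean CPM in HB (y axis). Bars are stage means, circles are library 1 and triangles are library 2. In HP the means lie between 0% for Tbx5 and 37.1% for Tbx20.

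From HE2 to HP, Hand1 and Foxf1 had much the same means, with 29.6 and 30.8 CPM for Hand1 and 2.39 and 2.43 CPM for Foxf1, and the libraries of the 2 stages overlapped. Hand2 had means of 29.7 CPM in HE2 and 10.1 CPM in HP without an overlap, which did not pass edgeR (log2 fold change -1.55 ± 0.27, adjusted p = 0.0732). Without HE2 replicate 2 its log2 fold change was -1.81. Those of Gata4 and Gata6 were -1.90 and -1.55 without that library, and -1.48 and -1.11 with all libraries. Calls over all genes also appeared without it. In HP, Hand1 and Foxf1 were higher in library 1, which also held more of the smooth muscle and mesenchyme genes (Acta2, the smooth muscle actin, 529 and 249 CPM; Col1a1, a collagen of mesenchyme, 386 and 187 CPM), whereas Gata4 was higher in library 2. Of the 5 expressed smooth muscle and mesenchyme genes, 5 were higher in library 1, with a median log2 difference of 1.02. Their part in the level of Hand1 was not tested.

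Among the genes called against HE1, the change was largest for Gata4 with -3.32 ± 0.38 and Hand2 with -3.07 ± 0.28 on the log2 scale (edgeR, adjusted p = 0.000348 and 0.000110), and Hand1 changed least of those expressed, with -1.22 ± 0.34 (edgeR, adjusted p = 0.0267). Without HE1 replicate 2, and equally without HP replicate 2, the calls of Hand1, Isl1 and Foxf1 were lost and 5 remained. The calls of Isl1 and Foxf1 were also lost with only the 4 libraries compared (edgeR, adjusted p = 0.152 and 0.0503) and without any 1 of the ES and HB libraries, that of Isl1 also without HP replicate 1 and with a term for the replicate number (edgeR, adjusted p = 0.0529), and that of Foxf1 also without HE1 replicate 1.

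Whether the genes returned to their ES level was addressed by comparing HP with ES. Of the 9, 6 were called as higher in HP than in ES, against 16.7% of all genes tested, and 1, Tbx5, was called as lower, against 21.9%. The Tbx5 call rested on 2 and 6 counts in ES and none in HP, and it was lost in edgeR with the 4 libraries alone and without ES replicate 2, HP replicate 1 or HP replicate 2. Tbx20 was higher by 2.41 ± 0.24, Hand1 by 4.18 ± 0.41, Gata6 by 4.30 ± 0.36, Foxf1 by 4.09 ± 0.61 and Gata4 by 1.97 ± 0.37 on the log2 scale, with adjusted p-values of at most 0.00134 in edgeR. Hand2, with 6 counts in ES in all, was called as well (edgeR, adjusted p = 9.54e-07). For Isl1 and Nkx2-5, the HP level was not called as different from the ES level (edgeR, adjusted p = 0.133 and 0.854).

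Levels of different genes were compared per length of exon, as CPM per kb (RPKM). In HB, Hand1 with 60.5 ± 11.6 RPKM (SD, n = 2) and Gata4 with 54.9 ± 5.51 led and overlapped each other, followed by Gata6 with 26.9 ± 0.404, Hand2 with 22.5 ± 4.08, Foxf1 with 10.4 ± 2.26 and Tbx20 with 10.0 ± 1.14, where the latter pair overlapped. Isl1 with 1.76 ± 0.0469, Nkx2-5 with 1.05 ± 0.194 and Tbx5 with 0.479 ± 0.148 came last. Tbx20 is the longest of the 9, with 11997 bases of exons, so that its place by counts was higher than its place by length.

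In HE1, Gata4 (43.6 ± 5.02 RPKM), Hand2 (36.3 ± 10.6) and Hand1 (35.9 ± 9.90) led with overlapping libraries, and in HE2 the same 3 genes led again with 12.3 ± 5.78 for Gata4, 12.6 ± 3.49 for Hand2 and 14.8 ± 6.19 for Hand1. In HP, Hand1 stood alone with 15.4 ± 6.78 RPKM and did not overlap the next genes, Gata4 with 4.40 ± 2.24, Hand2 with 4.31 ± 0.492 and Tbx20 with 3.72 ± 0.230. The 9 genes summed to 171 and 206 RPKM in HB and to 153 and 139 RPKM in HE1. The sums were 63.0 and 35.7 RPKM for HE2, 33.6 and 27.7 RPKM for HP, and 3.29 and 3.27 RPKM for ES.

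Within the GATA family, the balance between the cardiac and the blood members shifted. Gata4 and Gata6 together made up 79.1% and 77.1% of the RPKM of Gata1, Gata2, Gata3, Gata4 and Gata6 in the HB libraries and 67.6% and 75.5% in the HE1 libraries. The share was 43.7% and 25.1% for HE2 and 8.67% and 17.5% for HP. The share in the HP libraries was below that in both HE2 libraries, and that in HE2 below that in both HE1 libraries. Gata4 and Gata6 fell from 77.6 and 86.0 RPKM in HB to 4.04 and 7.52 RPKM in HP, while the sum of Gata1, Gata2 and Gata3 was 20.6 and 25.6 RPKM in HB and 42.6 and 35.5 RPKM in HP. The ratio of Gata4 to Gata6 in RPKM was 4.83 and 4.16 in HE1, above its values in both HB libraries.

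**Figure D4:**
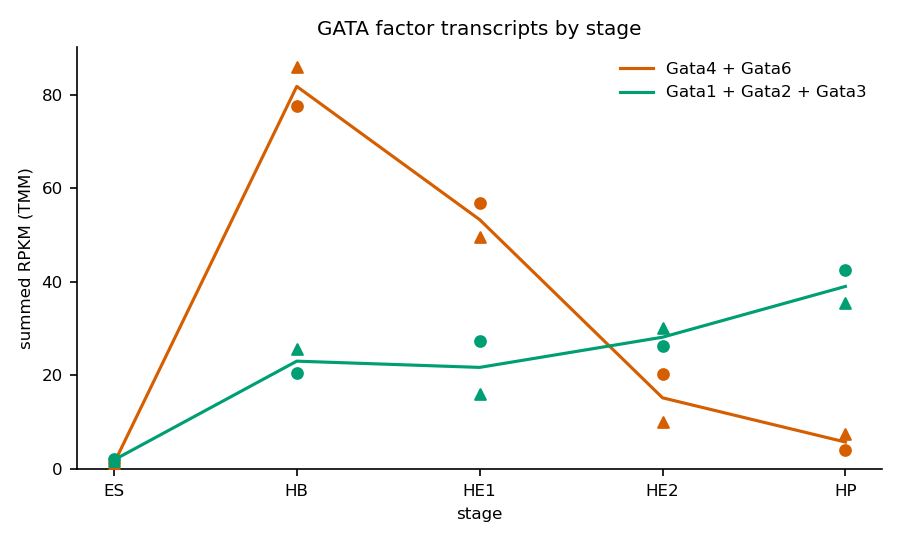
Summed RPKM (y axis) of Gata4 and Gata6 (orange) and of Gata1, Gata2 and Gata3 (green) in the 5 stages. Circles are library 1, triangles are library 2 and lines join the stage means. The orange points lie above the green ones in HB and HE1 and below them in HP.

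Transcripts that start on the opposite strand within 5 kb of a factor gene were examined, as the counting used the strand. Of those, 3 had enough counts to be tested. Hand2os1, a long noncoding RNA known to act on the Hand2 locus, starts 3250 bases from the start of Hand2 and shares 461 bases of exon with it on the other strand. 1010001N08Rik starts 503 bases from the start of Gata6 and shares 93 bases of exon with it on the other strand. Fendrr, a noncoding RNA of lateral mesoderm, starts 1276 bases from the start of Foxf1 and does not overlap it. Another 3 such transcripts, Gm29824 beside Tbx20, Gm43050 beside Tbx5 and the miRNA gene Gm27530 inside Foxf1, had at most 4 counts in any library.

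All 3 were called as higher in HB than in ES. Hand2os1 went from 2 and 2 counts to 428 and 489 counts (edgeR, adjusted p = 2.59e-05), 1010001N08Rik from 2 and 0 to 197 and 201 (edgeR, adjusted p = 3.77e-05), and Fendrr from 0 and 1 to 130 and 107 (edgeR, adjusted p = 0.000601). All 3 were called as lower in HP than in HB, with log2 fold changes of -2.45 ± 0.51 for Hand2os1, -5.80 ± 0.68 for 1010001N08Rik and -5.11 ± 0.98 for Fendrr (edgeR, adjusted p = 0.00420, 0.000121 and 0.00262). In that comparison the fold changes of the genes beside them were -2.38, -4.29 and -3.35. Galnt2l, which spans Foxf1 on the same strand but shares no exon with it, was not called in HB against ES or in HP against HB.

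After the ES stage, the counts of the 3 transcripts were compared with those of their neighbour. In HB, 1010001N08Rik had 3.755% and 3.196% of the counts of Gata6, and in HP 1.42% and 0.955%, which rest on 5 and 3 counts. Fendrr had 20.2% and 10.4% of the counts of Foxf1 in HB, and in HP 4.61% and 2.27%, from 7 and 1 counts. Hand2os1 had 30.7% and 23.1% of the counts of Hand2 in HB and 17.6% and 32.2% in HP. In HE1 the libraries differed, since Hand2os1 had 18.2 and 43.5 CPM while Hand2 had 103 and 67.8 CPM, so that the order of the libraries was opposite for the 2 transcripts. The same order was seen in 5033428I22Rik, a lincRNA 7485 bases beyond the end of Hand2 that was singled out after its values were seen, with 5.76 and 26.7 CPM. Library 2 of HE1 is the one with more ES and mesenchyme transcripts.

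**Figure D5:**
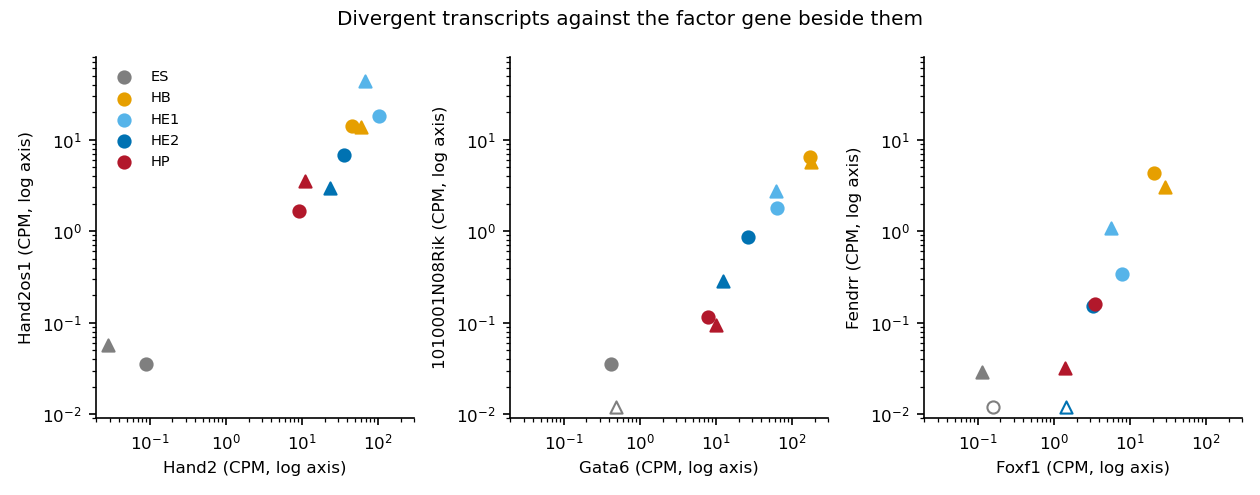
CPM of 3 noncoding transcripts (y axis, log) against the factor gene that starts beside them on the other strand (x axis, log). Each point is 1 library, with circles for library 1, triangles for library 2 and open symbols for transcripts with no count. Points of ES lie at the lower left and those of HB and HE1 at the upper right in the 3 panels, and in the panel of Hand2os1 the HE1 triangle lies above the HE1 circle.

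The courses of the factor genes were also compared with each other and with all genes. Across the 10 libraries, Pearson's r of log2 CPM between Hand1, Hand2, Gata4, Gata6, Tbx20 and Foxf1 was between 0.893 and 0.975, and that between Tbx5 and Isl1 was 0.944, while Tbx5 and Hand2 had 0.270. The 10 points are 5 pairs of libraries of a stage, and the low level in ES is shared by all of these genes. Among 12235 expressed genes, the course closest to that of Gata6 was that of Zfp703, a zinc finger corepressor (r = 0.996), with 2.08 CPM in ES cells, 117 CPM at the HB stage and 13.3 CPM in progenitors. It was followed by Greb1l (r = 0.993), which lies 726.9 kb from Gata6 on the same chromosome, and Rbms1 (r = 0.992).

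For Tbx20 the closest were Fam149a, Acbd3 and Stk39 (r = 0.993, 0.992 and 0.991), for Hand2 Vamp4, Igfbp4 and Frmd4b (r = 0.992, 0.991 and 0.990), and for Hand1 Pcsk5, Fbxl12 and Gadd45g (r = 0.992, 0.989 and 0.986). For Gata4 they were Prss12, Magi3 and Clic6 (r = 0.991, 0.988 and 0.987), and for Foxf1 Kctd2, Daam2 and Lrrc75a (r = 0.987, 0.984 and 0.982). A high r does not mean a change of like size. Daam2, a formin of Wnt signalling, had 45.4 CPM at the HB stage and 5.24 CPM at the HE1 stage, and Kctd2 had 36.4 and 32.0 CPM.

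Other factors of lateral plate and cardiac mesoderm were counted in the same way. Of 26 such genes, 21 were tested, and 13 were higher in HB than in ES and 0 lower (median log2 fold change 2.17, against 0.00 over all tested genes, of which 11.5% were higher and 17.3% lower). From HB to HP, 13 were lower and 0 higher (median -2.67), against 11.6% and 10.1% of all genes. Without single libraries, 9 to 16 were higher in HB than in ES and 10 to 13 lower in HP than in HB. Mesp1, the factor of nascent cardiac mesoderm, had 74.6 and 78.4 CPM in HB and at most 0.165 CPM in each library of the other stages (HE1 against HB, log2 fold change -9.17 ± 0.39, edgeR, adjusted p = 1.62e-06). Snai1, a repressor in mesoderm formation, fell from a mean of 57.8 CPM to 6.49 CPM between HB and HE1 (edgeR, adjusted p = 1.27e-05).

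From HB to HE1, 4 of the 21 tested were higher and 6 lower, against 12.7% and 8.19% of all genes, but 2 were higher without HB replicate 1 and 1 without HB replicate 2. Nr2f2, a factor of venous and atrial cells, rose from 2.07 to 12.9 CPM from HB to HE1 (edgeR, adjusted p = 0.00429), a call that was lost without HB replicate 2 (edgeR, adjusted p = 0.0542). Foxc2 and Hey2, factors of vessels and heart, fell from 10.8 to 0.350 CPM and from 17.4 to 1.55 CPM from HE1 to HP (edgeR, adjusted p = 0.00310 and 0.00104). Tbx2, a repressor of the T-box family, rose from 0.769 CPM in ES to 51.6 CPM in HB (edgeR, adjusted p = 0.000201). In HP, 3 of the 26 had a mean of at least 9 CPM, as did 5 of the 9 factor genes.

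Genes of the contractile apparatus and other cardiomyocyte genes were examined to see whether the factors were accompanied by them. Of 22 genes, 17 were tested. From ES to HB, 1 was higher and 5 lower, against 11.5% and 17.3% of all genes. From HB to HE1, 9 were higher and 2 lower, against 12.7% and 8.19%. From HB to HP, 6 were higher and 4 lower, against 10.1% and 11.6%. These counts depended on single libraries, since the numbers from ES to HB were 5 and 8 without HE1 replicate 2 and 4 and 8 without HE1 replicate 1. Without HE1 replicate 2, the library with more ES and mesenchyme transcripts, 6 were higher in HE1 than in HB, and Tnnc1, Actc1, Ttn and Nppb lost their calls. Without HB replicate 2, 5 were higher in HE1 and 3 in HP than in HB, and 2 were lower in HP without HB replicate 1 or without either HP library. Myl7, the atrial myosin light chain, was at 11.47 and 15.99 CPM in HB and at most 1.42 CPM in the libraries of HE1, HE2 and HP. Tnnt2, the cardiac troponin T, was at 2.15 and 1.32 CPM in HB and at 15.97 and 74.21 CPM in HE1 (edgeR, adjusted p = 0.00239), and its higher value was in library 2. Nppa, the atrial peptide, gave at most 1 count in any library. Tpm1, a tropomyosin that smooth muscle and other cells use as well, rose from 168.7 to 799.0 CPM from HB to HE1 (edgeR, adjusted p = 0.000372).

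Genes of smooth muscle and mesenchyme were mostly higher after HB. Of 10, HE1 had 7 above and 1 below HB by the call rule, against 12.7% and 8.19% of all genes. For HP these numbers were 6 and 1, against 10.1% and 11.6%. Acta2 stood at 2.25 and 2.06 CPM in HB. It was at 403 and 569 CPM in the HE1 libraries, at 428 and 278 CPM in the HE2 libraries, and at 529 and 249 CPM in the HP libraries. Pdgfra, the receptor on paraxial and cardiac mesoderm, was the exception, with 193 and 196 CPM in HB, 6.52 and 6.01 CPM in HE1, and 1.94 and 1.75 CPM in HP (HE1 against HB, log2 fold change -4.96 ± 0.29, edgeR, adjusted p = 4.51e-06). Col3a1, a fibrillar collagen, rose from a mean of 0.203 CPM to 30.6 CPM between HB and HE1 (edgeR, adjusted p = 1.76e-05). Together the 10 genes had 308 to 309 CPM in the HB libraries and 743 to 1818 CPM in the libraries of the 3 later stages.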

How the data were processed

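Nuclear RNA was depleted of rRNA and sequenced from stranded libraries. The authors filtered rRNA reads with RiboDetector and trimmed reads with Trimmomatic, used HISAT2 (v2.2.1) for alignment to mm10, and counted fragments on exons of Ensembl genes (release 102) with featureCounts (v2.0.1) in the reverse-stranded mode, in which a fragment that overlaps several genes is counted on each. These deposited counts are not normalized. The authors also deposited a matrix of 1 expression score per gene and stage, normalized with edgeR (v3.40.2) and limma and averaged over libraries. It was used here only for alternatives, as levels for the share of the HB level and for Tbx20 in ES, and as a set of genes to test.

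The members and gene lists were chosen with earlier results of these data known. The test was that of edgeR (v4.0.16), run in R (v4.3.3). Genes were filtered with filterByExpr on the stage, libraries were scaled with TMM, and a quasi-likelihood model of stage was fitted to the 10 libraries, with 5 residual degrees of freedom. The common biological coefficient of variation was 0.226. The call rule was a 2-fold change with an adjusted p-value below 0.05. The study calls the replicates of a stage biologically independent. The p-values rest on the spread between the 2 libraries of a stage, estimated jointly over the 5 stages and not only over those compared. Counts of the 2 libraries of a stage differed by a chi-square of 4.08 to 99.4 per degree of freedom, so that none is a copy of another. RPKM used the exon length of the count tables. Log2 CPM for correlations used a prior count of 2. Named from each list were the called genes with the largest changes in each direction and at least 9 CPM in 1 of the stages compared, and the markers of each cell type; for each expressed factor gene, the 3 genes with the highest r were named. Promoter windows, where given, were matched by symbol (4 of 9 genes) to RefSeq.

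The deviations of same-numbered libraries from their stage means correlated between -0.389 and 0.264 over pairs of stages, and above 0.041 only for HB and HE2, so that the number was not used as a pair. Alternatives were limma-voom (v3.58.1), DESeq2 (v1.42.0), scaling by total counts alone, all genes with a count, only the 4 libraries compared, a replicate block, library sizes that omit the top 20 genes, only genes of the deposited matrix, a 4-fold limit, and omission of single libraries. The steps were tested on simulated data. Remaining steps and plots used pandas (v2.3.3), numpy (v2.4.6) and matplotlib (v3.10.9) under Python (v3.11.15).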

Additional observations from a re-analysis of the deposited data

How the results depend on the processing

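The number of factor genes called as lower from HB to HP was 9 and stayed at 8 or 9 without any 1 library, and the number called as higher from ES to HB behaved alike. Other counts moved. In HE1 against HB, the 1 gene called as higher became 0 without the filter on low counts, with only the 4 libraries, with a replicate block (a term for the replicate number), with the crossed block, at 4-fold, and in a range from 0 to 1 without each library. At 4-fold, 2 genes were lower in HE1 than HB, 1 in HE2 than HE1, and 5 in HP than HE1. In HP against HE2, 0 factor genes were called as lower, but 3 with DESeq2, 3 without the filter, and 1 with only the 4 libraries. Over all genes, these settings called 193 of 22596, 389 of 39019 and 35 of 22596 as lower. Leaving out libraries gave 2 to 8 genes for HE2 against HE1, 0 to 3 for HP against HE2, and 5 to 8 for HP against HE1. The 1 gene lower in HP than in ES became 0 with only the 4 libraries, and 0 to 1 without each library. Of the 3 tested transcripts on the opposite strand, 2 were called as lower in HE2 than HE1. The number was 1 with total counts, with only the 4 libraries, with the replicate block, without the top 20 genes in the library sizes and at 4-fold. It also moved without single libraries.

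The replicate block changed no other count of factor genes by over 1.5 times, and it gave 7 lower genes for HE2 against HE1 and 0 for HP against HE2. Deviations of same-numbered libraries were opposed between HB and HE1, HB and HP, HE1 and HE2, and HE2 and HP (correlations from -0.389 to -0.208). The crossed block, in which the numbers of the later stage were swapped, was added after these were seen and gave 1 for HP against HE2, which was Hand2 (edgeR, adjusted p = 0.0317). Near-zero differences turned their sign. The log2 fold change from HE2 to HP was 0.06 for Hand1, -0.0175 with the crossed block, and from -0.48 to 0.56 without each library. It ranged from -0.63 to 2.18 for Isl1 and from -0.77 to 0.75 for Foxf1. That of Nkx2-5 from ES to HP ranged from -0.0938 to 0.36. The median share of the HB level ranged without each library from 63.3% to 77.1% in HE1, from 16.1% to 30.8% in HE2 and from 12.7% to 16.7% in HP. Of the 9 places in the order of levels, 2 in ES, 1 in HB, and 5 in each of HE1, HE2 and HP were the same without division by length, and 4 to 9 in HE1 and 4 to 9 in HP without each library. The cause of these changes was not tested. Genes with few counts, such as Tbx5 and Isl1 after HB, are limited by depth.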

Other observations

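Cofactors through which the factors act were also examined. Of 14 tested, HP had 2 above and 2 below HB by the call rule, close to the 10.1% and 11.6% of all genes, and 8 above and 3 below ES, against 16.7% and 21.9%. Zfpm1, the partner of GATA1 in blood, had 231 and 255 CPM in HB and 472 and 453 CPM in HP. Over another step, from HE1 to HP, Zfpm2, the partner of GATA4 in the heart, went from 33.6 and 26.9 CPM to 7.75 and 9.09 CPM (log2 fold change -1.85 ± 0.20, edgeR, adjusted p = 0.000292). Mef2c, a factor of heart, endothelium and blood, rose from 9.97 CPM in HB to 143 CPM in HP (edgeR, adjusted p = 1.13e-05). Myocd, a coactivator of cardiac and smooth muscle genes, fell from 13.0 to 1.36 CPM (edgeR, adjusted p = 0.000560).

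Genes of the Hedgehog pathway, which acts on Foxf1, were counted as well. Of 10, 8 were tested, and HB had 0 of them above and 5 below ES, but 1 and 3 without ES replicate 2 or HB replicate 1, against 11.5% and 17.3% of all genes. Gli1, a target of the pathway, fell from 65.9 to 4.82 CPM (edgeR, adjusted p = 0.000123). From HB to HP, 3 were lower and 0 higher, against 11.6% and 10.1%, and Gli2, a transcription factor of the pathway, fell from 19.6 to 2.60 CPM (edgeR, adjusted p = 0.000101). Of 14 genes of primitive and visceral endoderm, where Gata4 and Gata6 are also used, 12 were tested. From ES to HB, 4 were higher and 3 lower, against 11.5% and 17.3% of all genes, and from HB to HP 0 were higher and 4 lower, or 2 lower without HB replicate 1 or HP replicate 1, against 10.1% and 11.6%. Sox7 and Sox17, which endothelium also uses, rose from ES to HB from 0.526 to 62.6 CPM and from 0.235 to 13.5 CPM (edgeR, adjusted p = 0.000147 and 0.000379).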
